A study of Homo sapiens with 101 samples.

Results

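The retinoblastoma (RB) pathway decides whether a cell passes from G1 into S phase. D-type cyclins (CCND1, CCND2 and CCND3) bind the kinases CDK4 and CDK6, and these phosphorylate the pocket proteins RB1, RBL1 (p107) and RBL2 (p130). Unphosphorylated pocket proteins hold E2F transcription factors in check, and phosphorylation frees E2F to switch on genes of DNA replication. Growth factor signalling through RAS, MEK and ERK is a classical inducer of the D-type cyclins, and loss of growth control along this axis is common in colorectal cancer.

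The transcripts of these 8 genes are described here in 2 human colorectal cancer cell lines, SW480 and SW620. They were chosen by name, and each was represented by the probe set with the highest mean over all arrays, 8 of 19775 genes represented in this way. Both lines come from one patient, SW480 from the primary tumour, SW620 from a later lymph node metastasis. Each line was grown with a short hairpin RNA against CDK5, HRAS, MAP2K1, MAP2K2, MAPK3 or NGFR, with the empty pLKO vector, with a non-target hairpin, or without any vector (non-transduced cells). That makes 9 treatments in each line, 18 groups in all, measured on Affymetrix arrays with 1 sample per array. There were 6 arrays in each of 15 groups, 5 for the CDK5 knockdown of SW620 and 3 in each non-transduced group. The HRAS product is a RAS GTPase, those of MAP2K1 and MAP2K2 are the MEK kinases and that of MAPK3 is ERK1. CDK5 is an atypical cyclin-dependent kinase and NGFR a neurotrophin receptor. The 12 empty vector and 12 non-target arrays (24 together) are called the vector controls. All knockdowns were compared with these same vector controls, so their differences are not independent of one another. The labels give 1 hairpin code for each knockdown except HRAS, which has 1 code in replicate 1, none in replicate 2 and another code in replicates 3 to 6, so an effect of a single hairpin's other targets cannot be told apart from that of its gene.

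The values are log2 expression levels, and 1 unit is a 2-fold change. The names of the samples fall into series, here called label series: replicate 1 (17 arrays), replicate 2 (18), replicates 3 to 6 (64) and replicate 7 (2, non-transduced cells only). A difference is given as a log2 value ± its standard error after adjustment for label series within each line, and it was called when its limma p, adjusted over all genes, was under 0.05. Whether replicates 3 to 6 come from separate cultures is not stated in the labels, so the p-values measure the spread between these arrays, which may in part be technical. Each targeted gene was lower in its own knockdown in 11 of 12 comparisons within a line, at 9.25% to 80.2% of the vector controls, and the exception was NGFR in SW620. Of 10 markers of colorectal epithelium, 9 lay above the array median when averaged over the arrays of both lines. In the non-epithelial lists, 5 of 7 fibroblast, 3 of 6 leukocyte and 2 of 5 endothelial markers did so. The lines differed for the epithelial marker LGR5 (mean 3.87 in SW480, 8.22 in SW620) and the fibroblast marker LUM (3.54 and 7.94). Arrays of replicates 1 and 2 had a 90th percentile of 8.19 to 8.58, against 8.82 to 8.97 in replicates 3 to 7. In SW620, 3 arrays showed degraded RNA by the GAPDH 3 prime minus 5 prime difference (6.04 in MAP2K1 replicate 2, 3.82 in NGFR replicate 1 and 2.95 in MAPK3 replicate 2, against at most 1.47 elsewhere). The replicate 1 arrays of the MAP2K1, MAP2K2 and MAPK3 knockdowns labelled SW480 carried genes typical of SW620, at 0.39, 0.63 and 0.43 on a scale where the SW480 vector controls stand at 0 and those of SW620 at 1, against at most 0.22 on other SW480 arrays. Several results that rest on these 6 arrays are given with and without them, and others only with them.

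Sequence upstream of the start was searched for every member with a listed start, because pocket protein genes are textbook E2F targets. It is shown for the 3 members whose transcripts moved most broadly, RBL1, RBL2 and CDK6. The 250 bases before the first start that RefSeq lists for each gene (GRCh38.p14) are shown 5′ to 3′ on the strand of the gene, with E2F words in capitals. The words searched on both strands were TTTCCCGC, TTTGGCGC, TTTCGCGC and TTTGCCGC.
RBL1 (chr20:37095998-37096247, minus strand): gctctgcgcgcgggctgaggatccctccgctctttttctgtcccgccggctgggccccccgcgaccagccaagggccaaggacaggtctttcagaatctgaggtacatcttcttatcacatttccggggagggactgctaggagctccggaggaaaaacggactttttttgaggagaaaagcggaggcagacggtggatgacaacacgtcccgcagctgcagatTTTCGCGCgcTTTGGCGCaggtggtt
RBL2 (chr16:53434221-53434470, plus strand): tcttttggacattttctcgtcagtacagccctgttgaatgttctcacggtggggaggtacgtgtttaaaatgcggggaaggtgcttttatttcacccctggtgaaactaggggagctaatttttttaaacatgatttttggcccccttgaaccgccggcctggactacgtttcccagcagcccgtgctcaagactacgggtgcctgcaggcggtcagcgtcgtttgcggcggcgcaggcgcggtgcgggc
CDK6 (chr7:92836574-92836823, minus strand): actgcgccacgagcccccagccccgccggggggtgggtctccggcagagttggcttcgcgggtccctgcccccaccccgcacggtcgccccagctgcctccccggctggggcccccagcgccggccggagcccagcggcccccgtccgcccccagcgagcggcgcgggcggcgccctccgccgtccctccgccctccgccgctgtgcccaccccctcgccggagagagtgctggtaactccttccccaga
The RBL1 window held 2 E2F words, TTTCGCGC from base -26 to -19 and TTTGGCGC from -16 to -9, counted back from the start. At least 1 such word stood in 2.788% of the 35116 promoter windows of this length in the table. No E2F word was found in these RBL2 and CDK6 windows. The E-box CACGTG, a word that reads the same on both strands and is bound by MYC, occurred 3 times in the CDK4 window, at -216, -196 and -101, and at least once in 6.345% of all windows. A match describes letters only and was not tested as a binding site. CCND1 and CCND2 had no entry. The only start listed for RB1 lies 172699 bases into the gene, so the sequence before the first base of RB1 was not searched. The first start listed for CCND3 lies 1347 bases into its gene.

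In the vector controls, the lines differed at every member. Non-transduced cells were not tested for a line difference. Their ranges over all label series overlapped between the lines for CCND3, CDK4, RB1, RBL1 and RBL2, but not for CCND1, CCND2 and CDK6. These ranges pool label series, by which RB1 and RBL1 levels split, so an overlap does not mean equal levels. For CCND3, CDK4, RB1 and RBL1 the lowest, median and highest levels were each lower in SW620. For RBL2 the lowest was 7.71 in SW480 and 7.70 in SW620, and the median and highest were higher in SW620. Such ranges were not compared over all genes. Between the vector controls of SW620 and SW480, all 8 members passed the test (45.3% of all genes did), 6 of them lower and 2 higher in SW620. The difference was widest for CCND2, a D-type cyclin. Its lowest, median and highest levels were 9.07, 9.15 and 9.38 with the empty vector and 8.86, 8.92 and 9.80 with the non-target hairpin in SW480, against 5.20, 5.37 and 6.76 and 5.08, 5.38 and 6.49 in SW620. No SW620 control array reached the lowest SW480 control array, and the SW620 levels stood near the array medians of 5.05 to 5.28. The log2 difference, SW620 minus SW480, was -3.60 ± 0.22 (limma adjusted p = 4.3e-25). With the 4 CCND2 probe sets averaged it was -1.68, and since the SW620 levels lie this near the array medians the size of the difference is uncertain and no fold is given. In such bulk samples fewer cells that express a gene and less RNA of it per cell cannot be told apart.

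CCND1, the D-type cyclin best known from epithelial tumours, was also lower in SW620 (-1.78 ± 0.23, limma adjusted p = 1.3e-10). So was the third cyclin, CCND3 (-0.93 ± 0.13). RB1, which encodes the RB protein itself, differed by -1.09 ± 0.15, and its relative RBL1 by -0.45 ± 0.13. The 2 members that were higher in SW620 were CDK6, at 1.45 ± 0.14 (limma adjusted p = 3.9e-15), and RBL2, at 0.82 ± 0.14. So CDK6 and CDK4, the 2 kinases that the D-type cyclins activate, differed between the lines in opposite directions: the CDK4 difference was -0.45 ± 0.17 (limma adjusted p = 0.020). The CDK4 call ended under 9 of 19 alternatives, among them the replicate block (limma adjusted p = 0.096) and leaving out any of replicates 3 to 6 (0.085 to 0.11), and the RBL1 call under 2. The other 6 calls held under all 19. With all probe sets of a gene averaged, 3 of these values besides that of CCND2 moved by over 1.5-fold, to -0.49 for CCND3, -0.71 for RB1 and 0.89 for CDK6.

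Averaged over both lines, 16 of the 48 pairs of member and knockdown passed the test, 12 higher and 4 lower, beside 24% of all gene and knockdown pairs. By knockdown, 3 members passed for CDK5 (19.4% of all genes), 4 for HRAS (36%), 3 for MAP2K1 (15.2%), 3 for MAP2K2 (19.2%), 3 for MAPK3 (25.6%) and 0 for NGFR (28.7%). Within SW480, 12 of 48 pairs passed beside 13.4% of all pairs, and within SW620 18 of 48 beside 25.6%. The difference of a knockdown's effect between the lines passed in 9 of 48 pairs, beside 16.2% overall. Without the 6 arrays that stand apart these counts were 25 averaged over the lines, 20 in SW480, 25 in SW620 and 17 for the line differences. Set against non-transduced cells in place of the vector controls, an alternative chosen after seeing the data that rests on replicates 1 and 2, they were 2, 3, 4 and 1. The kinase CDK6 and the pocket protein genes RBL1 and RBL2 accounted for most of these calls, whereas CCND1 and RB1 passed in no knockdown in either line.

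**Figure D1:**
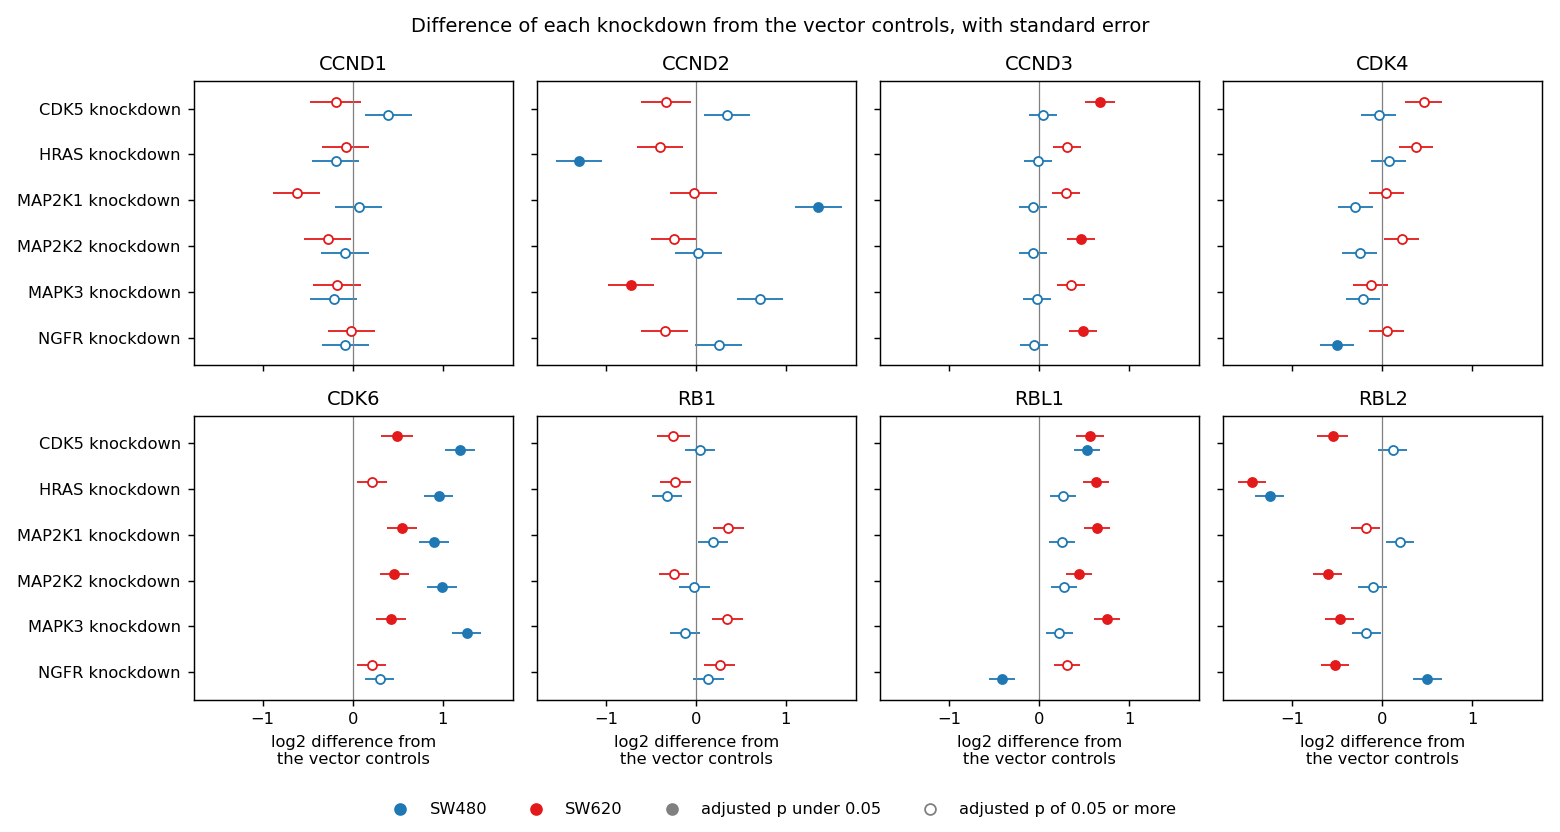
Log2 difference of each knockdown from the vector controls for the 8 members, in SW480 (blue) and SW620 (red), with the standard error as bars; filled points passed the adjusted limma test. CDK6 lies to the right of 0 in every knockdown, RBL2 lies furthest left in the HRAS knockdown of both lines, and CCND2 goes opposite ways in the HRAS and MAP2K1 knockdowns of SW480.

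CDK6, the kinase partner of the D-type cyclins that SW620 holds at the higher level, rose in 5 of 6 knockdowns when averaged over the lines. In SW480 the lowest, median and highest levels were 8.90, 9.44 and 9.46 with the empty vector and 7.75, 8.92 and 9.09 with the non-target hairpin. They were 9.93, 10.17 and 10.30 in the CDK5 knockdown and 8.50, 10.51 and 10.86 in the MAPK3 knockdown. The 6 CDK5 arrays all lay above every vector control, whereas the MAPK3 group had 1 low array, replicate 2.

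In SW480, CDK6 rose by 1.19 ± 0.16 in the CDK5 knockdown (2.28-fold, limma adjusted p = 6.4e-08). The MAPK3 knockdown, in which MAPK3 itself stood at 80.2% of the vector controls, gave 1.27 ± 0.16 (2.41-fold, limma adjusted p = 5.5e-09). With the knockdowns of MAP2K2, HRAS and MAP2K1, CDK6 rose by 0.99 ± 0.16, 0.95 ± 0.16 and 0.90 ± 0.16. The NGFR knockdown showed 0.30 ± 0.16, which did not pass (limma adjusted p = 0.19). Ordered from MAPK3 through CDK5, MAP2K2 and HRAS to MAP2K1, neighbours lay within 2 standard errors of each other, and their differences were not tested.

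In SW620 CDK6 started from a higher level and rose in 4 of 6 knockdowns. Its lowest, median and highest levels were 9.996, 10.81 and 10.84 with the empty vector, 9.15, 10.42 and 10.46 with the non-target hairpin, 10.73, 11.03 and 11.04 in the CDK5 knockdown and 10.54, 10.90 and 11.38 in the MAP2K1 knockdown. CDK6 rose by 0.55 ± 0.16 in the MAP2K1, 0.49 ± 0.18 in the CDK5, 0.46 ± 0.16 in the MAP2K2 and 0.43 ± 0.16 in the MAPK3 knockdown. The HRAS (0.22 ± 0.16) and NGFR (0.21 ± 0.16) knockdowns did not pass. Tested directly, the effect in SW620 was lower than in SW480 for the CDK5 (-0.70 ± 0.24, limma adjusted p = 0.034), HRAS (-0.74 ± 0.23, 0.016) and MAPK3 knockdowns (-0.84 ± 0.23, 0.0065). HRAS itself also fell less in SW620, and the part of this in the HRAS line difference was not tested. With any of replicates 3 to 6 left out in turn, the SW620 rises with the CDK5 and MAP2K2 knockdowns no longer passed (limma adjusted p = 0.091 to 0.10 and 0.070 to 0.084). The same held for the line differences of CDK5 (0.11 to 0.13) and HRAS (0.083 to 0.094), and that of MAPK3 ended without replicate 3, 4 or 6 (0.05253 to 0.070). Leaving out the degraded arrays ended the rise with MAP2K1 in SW620 (0.39, limma adjusted p = 0.082).

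**Figure D2:**
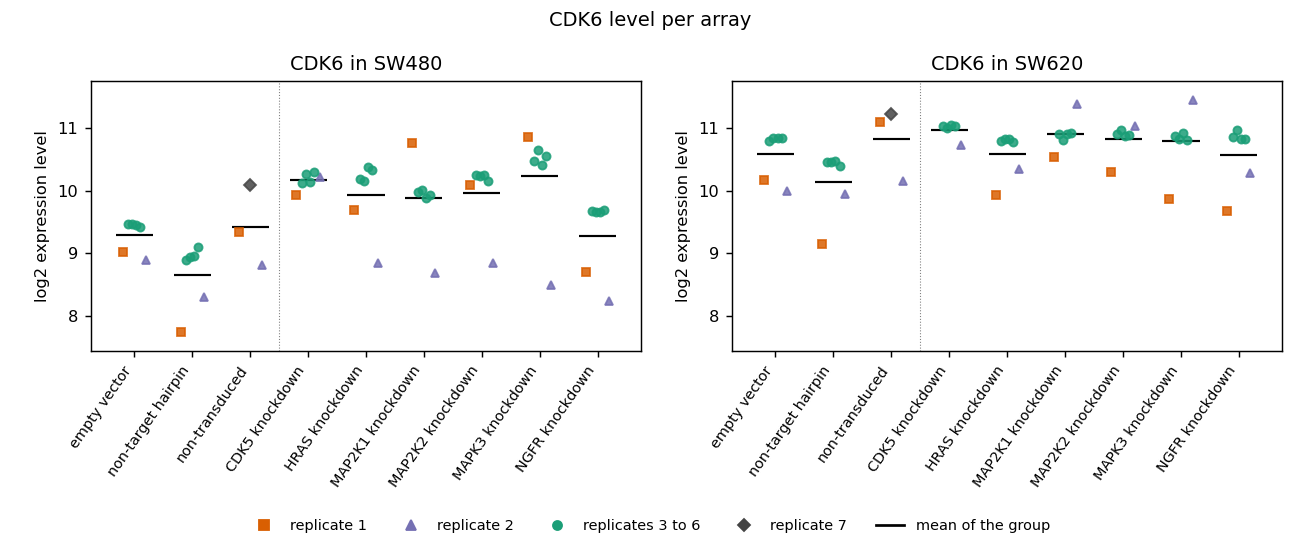
CDK6 level (log2) on each array by treatment in SW480 (left) and SW620 (right); symbols mark the label series and black lines the group means. In SW480 the replicates 3 to 6 of 5 knockdowns lie between 9.88 and 10.65, above the vector controls of the same series at 8.90 to 9.46, and in SW620 the groups lie close together.

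The size of the CDK6 rise differed with the control it was set against. The non-target arrays differed from the empty vector arrays by -0.63 ± 0.19 in SW480 and -0.43 ± 0.19 in SW620, and neither difference passed (limma adjusted p = 0.24 and 1.00). Against the empty vector alone, the rise in SW480 was 0.88 for CDK5, 0.95 for MAPK3, 0.68 for MAP2K2, 0.64 for HRAS and 0.59 for MAP2K1, and the last of these no longer passed (limma adjusted p = 0.05022). Against the empty vector alone no CDK6 rise in SW620 passed (limma adjusted p = 0.37 for CDK5 and 0.27 for MAP2K1).

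Non-transduced cells had CDK6 at 9.34, 8.81 and 10.09 in SW480 (replicates 1, 2 and 7) and at 11.10, 10.15 and 11.22 in SW620. Set against these cells, no CDK6 difference passed in either line. The values were 0.70 ± 0.28 for MAPK3 and 0.63 ± 0.28 for CDK5 in SW480, and -0.11 ± 0.29 for CDK5 in SW620. So the knockdown cells stood above the vector controls in CDK6, and by less, or not at all, above cells without a vector.

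By label series, CDK6 in SW480 stood above the vector controls by 1.54, 1.61 and 1.00 in the CDK5 knockdown (replicate 1, replicate 2 and replicates 3 to 6). For MAPK3 these values were 2.47, -0.10 and 1.31, so replicate 2 showed no rise. The line difference for MAPK3 was -0.56 without replicate 1 and -1.32 without replicate 2. Without the 6 arrays that stand apart, the SW480 values were 1.06 for MAPK3, 0.88 for MAP2K2 and 0.64 for MAP2K1, and all 3 still passed. In SW620 the MAPK3 call ended without them (0.23, limma adjusted p = 0.18) and under 14 of 19 alternatives in all, the replicate block among them (limma adjusted p = 0.05038), and leaving out any of replicates 2 to 6 (0.069 to 0.19).

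CDK4, the other D-cyclin kinase, changed in 1 of the 12 comparisons within a line. Its levels ran from 10.08 to 11.72 over the SW480 arrays and from 8.37 to 11.42 over the SW620 arrays, and the lowest of these was the degraded MAPK3 array. The change was that of the NGFR knockdown in SW480, where its lowest, median and highest levels were 10.32, 10.38 and 10.64, against 10.74, 10.78 and 11.29 with the empty vector and 10.82, 10.88 and 11.54 with the non-target hairpin. The groups did not overlap, and CDK4 fell by 0.50 ± 0.19 on the log2 scale (limma adjusted p = 0.044). That call ended under 9 of 19 alternatives, with the replicate block among them (-0.50, limma adjusted p = 0.057) and leaving out any of replicates 3 to 6 (0.11 to 0.13). The log2 differences by label series were -0.78, -0.38 and -0.47. In SW620 the MAPK3 difference of CDK4 was -0.13, and without the arrays that stand apart CDK4 rose (0.33, limma adjusted p = 0.022).

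Among the D-type cyclins, CCND2 went in opposite directions with the HRAS and MAP2K1 knockdowns in SW480. Beside the control levels given above, its lowest, median and highest levels were 7.33, 7.91 and 8.18 in the HRAS knockdown and 10.13, 10.16 and 12.12 in the MAP2K1 knockdown. Every HRAS array lay below, and every MAP2K1 array above, all vector controls of SW480. CCND2 fell by 1.30 ± 0.26 on the log2 scale with the HRAS knockdown (2.46-fold, limma adjusted p = 4.4e-05) and rose by 1.36 ± 0.26 with the MAP2K1 knockdown (2.57-fold, limma adjusted p = 1.2e-04).

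The knockdown of the other MEK gene, MAP2K2, left CCND2 at 8.65, 8.74 and 10.46 in SW480, a difference of 0.03 ± 0.26 with a 95% interval of -0.49 to 0.54. The highest of these is the array that carries genes of SW620; without the 6 arrays that stand apart the difference was -0.25 ± 0.23, which did not pass, and in replicates 3 to 6 alone it was -0.31 (limma adjusted p = 2.3e-04). The ERK1 gene MAPK3 gave 0.71 ± 0.26, which did not pass (limma adjusted p = 0.061). In SW620, where CCND2 was low throughout, the MAPK3 knockdown stood at 4.32, 4.88 and 5.95 and fell by 0.72 ± 0.26 (limma adjusted p = 0.026). The effect in SW620 minus that in SW480 was -1.38 ± 0.37 for MAP2K1 (limma adjusted p = 0.0069) and -1.43 ± 0.37 for MAPK3 (limma adjusted p = 0.0032).

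The replicate 1 arrays labelled SW480 that carry genes of SW620 had CCND2 at 12.12 (MAP2K1), 11.92 (MAPK3) and 10.46 (MAP2K2), higher than the other arrays of their groups. Without the 6 arrays that stand apart, CCND2 rose by 1.02 with the MAP2K1 knockdown in SW480 (limma adjusted p = 0.0010), and the MAPK3 difference there was 0.29. The HRAS fall and the MAP2K1 rise in SW480 passed under all 19 alternatives, but with the 4 CCND2 probe sets averaged the fall was -0.55 (limma adjusted p = 0.014) and the rise 0.94. Without replicate 1, the line differences of CCND2 were -0.72 for MAP2K1 and -0.78 for MAPK3, and the SW620 MAPK3 fall was -0.48. Against non-transduced SW480 cells, CCND2 differed by -1.01 ± 0.43 with the HRAS knockdown, which did not pass (limma adjusted p = 0.12). With the MAP2K1 knockdown it differed by 1.65 ± 0.43 (limma adjusted p = 0.04504). Averaged over the lines, the MAP2K1 rise of CCND2 ended without replicate 3 or 6 (0.05359 to 0.062). The SW620 MAPK3 call ended under 7 of 19, leaving out replicate 4, 5 or 6 among them (0.060 to 0.064). In replicates 3 to 6 alone, the MAP2K1 difference of CCND2 in SW620 was 0.47 in place of -0.02.

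**Figure D3:**
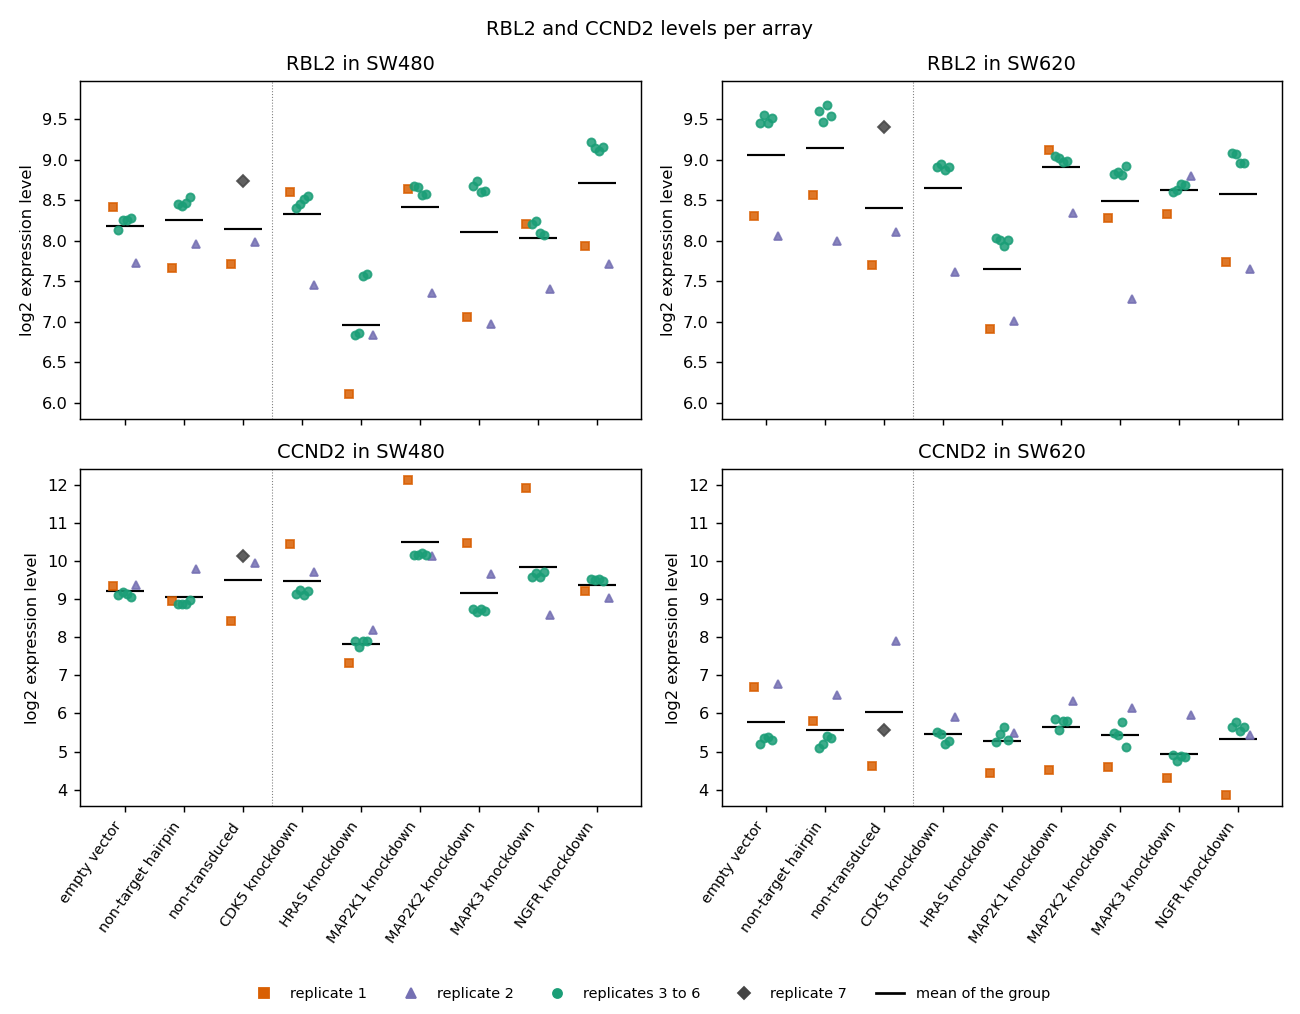
RBL2 (top) and CCND2 (bottom) levels (log2) on each array by treatment in SW480 (left) and SW620 (right); symbols mark the label series and black lines the group means. The HRAS knockdown holds the lowest RBL2 level of each label series with knockdown arrays in both lines, from 6.11 to 8.03, and CCND2 in SW480 is lowest with the HRAS knockdown and highest with the MAP2K1 knockdown.

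CCND3 rose in 3 of 6 knockdowns of SW620 and in 0 of 6 in SW480 (limma, also 0 at an unadjusted p under 0.05). In SW620 its lowest, median and highest levels were 8.58, 8.71 and 9.09 with the empty vector, 8.54, 8.62 and 9.42 with the non-target hairpin, 9.25, 9.29 and 9.77 in the CDK5 and 9.01, 9.14 and 9.89 in the NGFR knockdown. CCND3 rose there by 0.68 ± 0.17 with the CDK5 (limma adjusted p = 0.0012), 0.48 ± 0.15 with the NGFR (0.014) and 0.46 ± 0.15 with the MAP2K2 knockdown (0.021). In SW480 the 6 differences lay between -0.07 and 0.05, and none passed. The MAPK3 array of SW480 replicate 1, which carries genes of SW620, read 8.33, and without the arrays that stand apart CCND3 rose with the MAPK3 knockdown there (0.30, limma adjusted p = 0.021). The effect differed between the lines for CDK5, by 0.63 ± 0.23 (limma adjusted p = 0.04567), a call that ended with the replicate block (0.060) and under 10 of 19 alternatives in all, leaving out any of replicates 3 to 6 among them (0.14 to 0.15). In SW620, the MAP2K2 rise ended without any of replicates 2 to 6 (0.064 to 0.12) and the NGFR rise without replicate 4 or 6 (0.05159 to 0.058). Averaged over the lines, the CDK5 rise of CCND3 (0.36 ± 0.11) ended without any of replicates 3 to 6 (0.058 to 0.078).

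In non-transduced SW620 cells CCND3 stood at 9.79, 9.12 and 8.95, and the difference of the vector controls from them was -0.52 ± 0.25, which did not pass (limma adjusted p = 0.21). Against non-transduced SW620 cells the CDK5 difference in CCND3 was 0.16 ± 0.27 and did not pass (limma adjusted p = 0.84). Both comparisons share the non-transduced cells.

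CCND1, the textbook target of RAS and ERK signalling, passed limma's test in 0 of the 12 comparisons within a line, and 1 had an unadjusted p under 0.05. In SW480 its lowest, median and highest levels were 11.56, 11.58 and 12.21 with the empty vector and 10.74, 11.46 and 11.90 in the HRAS knockdown. In the MAP2K1 knockdown of SW620 they were 6.67, 9.68 and 9.94, and the lowest of these was the degraded replicate 2 array. The difference there was -0.62 ± 0.26 (limma adjusted p = 0.086), and it was -0.18 without the arrays that stand apart (limma adjusted p = 0.29). The HRAS knockdown gave -0.19 ± 0.26 in SW480 with a 95% interval of -0.71 to 0.33, and -0.08 ± 0.26 in SW620 with an interval of -0.60 to 0.44. The label series disagreed on the direction of CCND1 in SW480: the MAPK3 knockdown was -3.46 from the controls in replicate 1 (an array that carries genes of SW620), -0.05 in replicate 2 and 0.56 in replicates 3 to 6. Without the arrays that stand apart, CCND1 rose with the MAPK3 knockdown in SW480 (0.43, limma adjusted p = 0.0040), against -0.21 with them.

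RB1, the gene of the retinoblastoma protein, also passed limma's test in 0 of 12, with 2 at an unadjusted p under 0.05. In SW480 its differences lay between -0.32 (HRAS) and 0.19 (MAP2K1), and in SW620 between -0.25 (CDK5) and 0.36 (MAP2K1). Its level split by label series: with the empty vector in SW480 it was 8.71 and 8.05 in replicates 1 and 2 and 10.14 to 10.23 in replicates 3 to 6. The degraded SW620 arrays of the MAP2K1 and MAPK3 knockdowns read 8.83 and 9.21, the highest RB1 levels of replicates 1 and 2 in SW620. Without the arrays that stand apart, the MAP2K1 and MAPK3 differences in SW620 were 0.11 and 0.02.

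RBL1, the pocket protein p107 whose window holds both E2F words, rose in 5 of 6 knockdowns averaged over the lines and in the same 5 within SW620. In SW620 its levels split by label series: the empty vector read 4.40 and 3.98 in replicates 1 and 2 and 6.83 to 6.92 in replicates 3 to 6. The HRAS knockdown read 4.81 and 4.66, then 7.54 to 7.63. The MAPK3 knockdown read 4.60 and 5.85, then 7.43 to 7.73. Within each label series these knockdown arrays all lay above the vector controls. The MAPK3 array at 5.85 is one of the degraded ones.

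In SW620, RBL1 rose by 0.76 ± 0.15 in the MAPK3 knockdown (limma adjusted p = 3.1e-05), 0.65 ± 0.15 in the MAP2K1, 0.63 ± 0.15 in the HRAS, 0.56 ± 0.16 in the CDK5 and 0.44 ± 0.15 in the MAP2K2 knockdown. The NGFR knockdown gave 0.31 ± 0.15, which did not pass (limma adjusted p = 0.11). In SW480, RBL1 rose in the CDK5 knockdown (0.54 ± 0.15, limma adjusted p = 0.011) and fell in the NGFR knockdown (-0.41 ± 0.15, 0.029). The NGFR effect differed between the lines by 0.73 ± 0.21 (limma adjusted p = 0.0060), and the other 5 line differences of RBL1 did not pass. As given above, NGFR itself fell less in SW620. The RBL1 call with MAP2K2 in SW620 ended without replicate 2, 3, 4 or 6 (0.092 to 0.12), and averaged over the lines (0.36 ± 0.10) without 3, 4 or 6 (0.071 to 0.085). In SW480, the CDK5 call ended without any of replicates 3 to 6 (0.065 to 0.097) and the NGFR call without any of 2 to 6 (0.05215 to 0.13). The NGFR line difference ended without 4 or 5 (0.05004 to 0.062).

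All the RBL1 rises ended when the model had no term for label series (limma adjusted p = 0.75 for MAPK3 and 0.82 for HRAS in SW620). With arrays averaged in pairs, the SW620 rises of HRAS (0.037) and MAPK3 (0.0046) passed and the other 3 did not. Without the arrays that stand apart, the MAPK3 rise was 0.57 and the MAP2K1 rise 0.53. Against non-transduced cells in SW620, RBL1 stood at 0.83 ± 0.25 with the MAPK3 (limma adjusted p = 0.022) and 0.70 ± 0.25 with the HRAS knockdown (0.073).

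**Figure D4:**
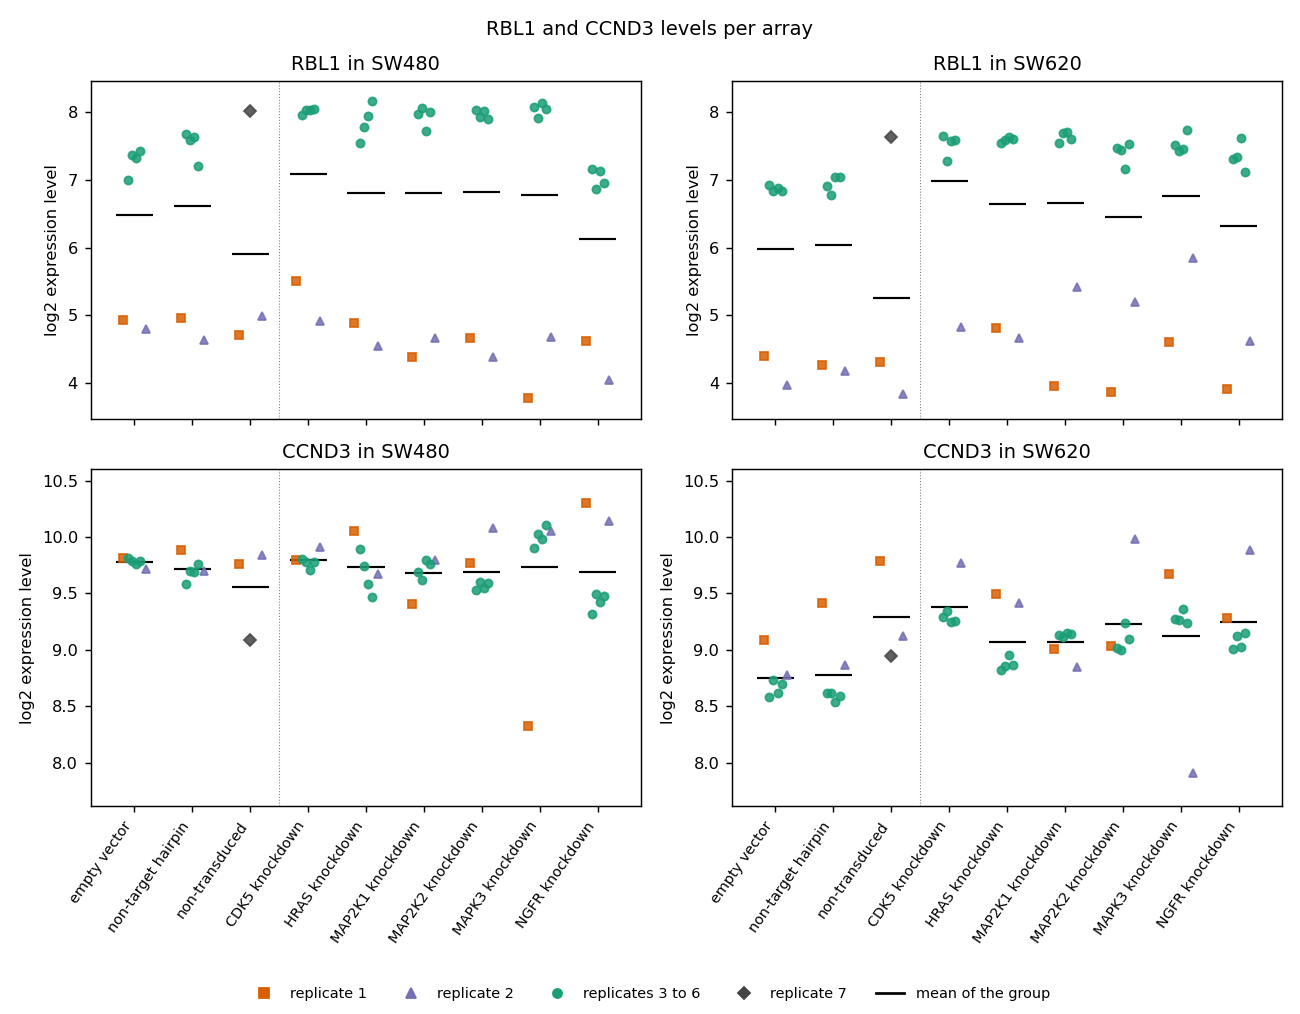
RBL1 (top) and CCND3 (bottom) levels (log2) on each array by treatment in SW480 (left) and SW620 (right); symbols mark the label series and black lines the group means. RBL1 lies between 3.78 and 5.85 on all arrays of replicates 1 and 2 and between 6.78 and 8.16 in replicates 3 to 7. In SW620 the replicates 3 to 6 of all knockdowns lie above the vector controls of the same series for both genes.

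RBL2, which encodes p130, the pocket protein best known from resting cells, fell with the HRAS knockdown in both lines. Averaged over the lines this was the largest difference of any member from its vector controls (-1.35 ± 0.11); within SW480 alone, CCND2 with HRAS or MAP2K1 and CDK6 with MAPK3 differed by slightly more. In SW480 its lowest, median and highest levels were 6.11, 6.85 and 7.59 in the HRAS knockdown, against 7.73, 8.25 and 8.42 with the empty vector and 7.67, 8.44 and 8.54 with the non-target hairpin. In SW620 they were 6.91, 7.97 and 8.03, against 8.06, 9.46 and 9.55 and 8.00, 9.50 and 9.67. All 12 HRAS arrays lay below every vector control of their own line and label series.

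The fall was 1.25 ± 0.16 on the log2 scale in SW480 (2.38-fold, limma adjusted p = 1.1e-09) and 1.45 ± 0.16 in SW620 (2.73-fold, limma adjusted p = 5.8e-12). The line difference was -0.20 ± 0.23 with a 95% interval of -0.65 to 0.25. By label series, the SW480 fall was -1.94 in replicate 1, -1.01 in replicate 2 and -1.14 in replicates 3 to 6, and in SW620 it was -1.52, -1.02 and -1.54. Replicate 1 and replicates 3 to 6 carry different hairpin codes for HRAS, so RBL2 was low under both codes. Within replicates 3 to 6 of SW480, the arrays whose names end in A1 and A2 read 6.84 and 6.86 and those ending in B1 and B2 read 7.56 and 7.59. The GAPDH 3 prime minus 5 prime difference, a sign of RNA quality, was 1.39 and 1.47 on the first 2 and 0.41 and 0.32 on the last 2, and its part in the split was not tested. The HRAS calls of RBL2 held under all 19 alternatives, and against non-transduced cells the differences were -1.38 ± 0.27 in SW480 (limma adjusted p = 1.3e-04) and -0.88 ± 0.27 in SW620 (0.035).

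RBL2 also moved in other knockdowns, and not alike in both lines for NGFR and CDK5. In SW620 it fell with the MAP2K2 (-0.61 ± 0.16), CDK5 (-0.55 ± 0.17), NGFR (-0.52 ± 0.16) and MAPK3 knockdowns (-0.47 ± 0.16). In SW480 it rose with the NGFR knockdown, where its lowest, median and highest levels were 7.71, 9.13 and 9.22, by 0.50 ± 0.16 (limma adjusted p = 0.014). The NGFR effect differed between the lines by -1.02 ± 0.23 (limma adjusted p = 3.2e-04), the widest line difference of a pocket protein gene. NGFR itself fell less in SW620, and the part of this in the line difference was not tested. The CDK5 effect differed by -0.67 ± 0.23 (0.040), a call that ended with the replicate block (0.05322) or without any of replicates 3 to 6 (0.13 to 0.16).

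With any of replicates 3 to 6 left out in turn, the RBL2 calls of CDK5 (0.05478 to 0.074) and MAPK3 (0.12 to 0.13) in SW620 and of NGFR in SW480 (0.095 to 0.13) ended. Averaged over the lines, the MAPK3 fall (-0.33 ± 0.11) ended in the same way (0.11 to 0.15), and the MAP2K2 fall (-0.36 ± 0.11) without replicate 2 or 5 (0.05431 to 0.062) and without the SW480 arrays that carry genes of SW620 (-0.29, limma adjusted p = 0.05229). In SW480 the NGFR values by label series were -0.10, -0.13 and 0.81, so the rise lay in replicates 3 to 6. Without the arrays that stand apart, the SW620 values were -0.69 for MAPK3 and -0.44 for NGFR, and both passed. The MAPK3 value was -0.72 without replicate 2. Against non-transduced cells in SW620 the differences of these 4 knockdowns lay between -0.04 ± 0.27 and 0.10 ± 0.27, and none passed. The vector controls of SW620 stood above the non-transduced cells in RBL2 by 0.57 ± 0.25 (limma adjusted p = 0.18).

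The vectors alone moved no member past the threshold. Between the non-target hairpin and the empty vector, 0 of 16 member and line pairs passed by limma, adjusted (0.101% of all genes in SW480 and 0.00506% in SW620), with 2 at an unadjusted p under 0.05, both of CDK6. Between the vector controls and non-transduced cells, 0 of 16 passed (0% of all genes in SW480 and 5.88% in SW620), with 5 at an unadjusted p under 0.05. These were CCND1 in SW480 (-0.91 ± 0.41), CDK6 in SW480 (-0.57 ± 0.26) and SW620 (-0.60 ± 0.26), and CCND3 (-0.52 ± 0.25) and RBL2 (0.57 ± 0.25) in SW620. That comparison rests on replicates 1 and 2, 2 non-transduced arrays a line as well as the controls of those series, and the number of arrays limits its precision.

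Targets of E2F, the factor that the pocket proteins restrain, differed between the lines in the same comparisons. Of 20 listed genes of S phase entry, 19 had values. Against the SW620 vector controls, 18 were higher in the CDK5 knockdown (median log2 difference 0.90), 18 in the HRAS (0.91), 17 in the MAP2K1 (0.72), 13 in the MAP2K2 (0.66), 15 in the MAPK3 (0.61) and 19 in the NGFR knockdown (0.82), and 0 were lower in any. Over all genes the medians lay between -0.01 and 0.01, and 10.6%, 14.2%, 9.77%, 10.5%, 13.9% and 12.9% were higher, in the same order. With the HRAS knockdown the smallest p-values belonged to CHAF1A, a histone chaperone subunit (0.96 ± 0.14), ORC1, a replication origin subunit (1.31 ± 0.19), and TYMS, which makes thymidylate (1.40 ± 0.25).

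In SW480 the same list had 0 members higher in 5 knockdowns and 1 in the HRAS knockdown, with medians from -0.21 to 0.10, and 2 were lower in the NGFR knockdown (10.9% of all genes). Between 2.07% and 13.1% of all genes were higher in these SW480 knockdowns. The difference between lines passed for 18 of 19 in the NGFR, 13 in the HRAS, 11 in the MAP2K1 and MAPK3, 10 in the CDK5 and 2 in the MAP2K2 knockdown, beside 23.7%, 18.9%, 11.5% (MAP2K1), 17% (MAPK3), 15.6% and 10.4% of all genes, so the MAP2K2 count is no more than the background. With any 1 of replicates 3 to 6 left out, these line differences passed for 13 to 14 in the NGFR, 6 to 8 in the HRAS, 1 to 3 in the MAP2K1, 8 in the MAPK3, 4 in the CDK5 and 0 in the MAP2K2 knockdown, and without replicate 1 for 14 to 18 in each. The E2F list was also low in the SW620 vector controls: 16 of 19 were lower there than in SW480 (22.1% of all genes were; median -0.82), with RRM2, a ribonucleotide reductase subunit, at -2.88 ± 0.27. Against non-transduced SW620 cells, the vector controls had a median of -0.80 with 4 of 19 lower (1.54% of all genes), and 0 of the 19 were higher in any knockdown set against non-transduced cells (medians from -0.08 to 0.21). Without the 6 arrays that stand apart 15 to 19, and with arrays averaged in pairs 0 to 12, of the 19 were higher in the SW620 knockdowns. Without a term for label series 3 to 12 were. Over all other settings, the line differences passed for between 0 and 19 of the 19 genes in each knockdown. The targets NGFR and HRAS themselves fell less in SW620, and the part of this in these counts was not tested. In SW480 the genes called higher reached 10 in the CDK5, 5 in the HRAS, 11 in the MAP2K1, 12 in the MAP2K2, 6 in the MAPK3 and 0 in the NGFR knockdown. Genes called lower there reached 15 in the NGFR, 6 in the HRAS and 5 in the MAPK3 knockdown, and at most 1 in the others.

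**Figure D5:**
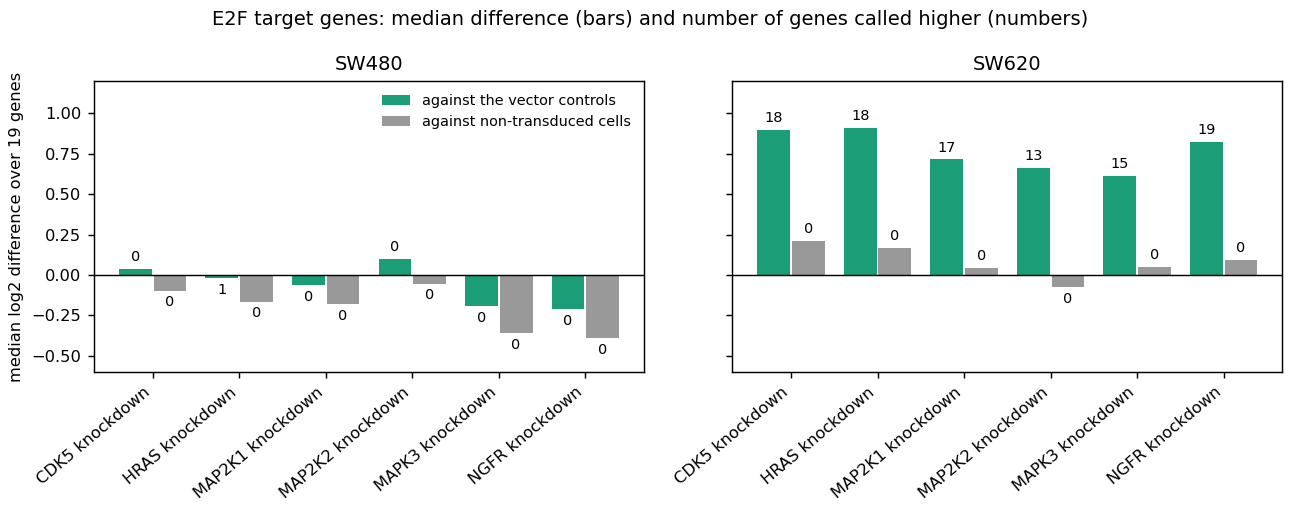
Median log2 difference of 19 E2F target genes in each knockdown, in SW480 (left) and SW620 (right), against the vector controls (green) and against non-transduced cells (grey); the number at each bar counts the genes called higher by limma. The green bars reach 0.61 to 0.91 in SW620 and lie between -0.21 and 0.10 in SW480, and the grey bars carry no gene called higher.

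Other partners of the pathway moved with the knockdown and line. Of 6 measured CDK inhibitors, 4 were higher in the NGFR knockdown of SW480, beside 13.1% of all genes, led by CDKN1B (p27) at 1.29 ± 0.14, CDKN1C (p57) at 0.70 ± 0.13 and CDKN1A (p21) at 0.79 ± 0.16, and 0 were lower. The median of this list was 0.56 there, against -0.02 over all genes. CDK4 and RBL1 fell and RBL2 rose in the same group. In SW620 the list had 1 higher and 2 lower in the NGFR knockdown (12.9% and 13.4% of all genes), and 4 lower in the CDK5 knockdown (13.4%), with CDKN2B (p15) at -1.98 ± 0.32. Against non-transduced cells, 1 was higher in the NGFR knockdown of SW480 and 0 were lower in the CDK5 knockdown of SW620, where 1 was with arrays averaged in pairs.

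A further list of 10 genes held CDK2, its cyclins and regulators, and CDK-activating genes. Of these, 7 were higher and 0 lower in the MAP2K1 knockdown of SW620 (9.77% and 9.28% of all genes). In the NGFR knockdown 7 were higher and 1 lower (12.9% and 13.4%), and in the HRAS knockdown 4 were higher and 2 lower (14.2% and 16.8%). Against non-transduced cells 0 were higher in any of these 3, and a model lacking the label series called 1, 2 and 0 higher. Those with the smallest p-values in the HRAS knockdown of SW620 were SKP2, an F-box protein that marks p27 for destruction (1.06 ± 0.20), cyclin A2, CCNA2 (1.06 ± 0.21), and cyclin E2, CCNE2 (1.49 ± 0.29). In SW480, CDK2 itself fell in the HRAS knockdown (-1.09 ± 0.12, limma adjusted p = 6.3e-12). Among 15 E2F, DP and MuvB genes, 6 were higher and 1 lower in the HRAS knockdown of SW620 (14.2% and 16.8% of all genes), led by E2F7, a repressor E2F (1.25 ± 0.18), and in SW480 3 were higher and 3 lower (9.97% and 16.2%), the latter near the background. In SW620 the 6 higher became 3 to 4 with any 1 of replicates 3 to 6 left out, and 1 with arrays averaged in pairs, without a term for label series or against non-transduced cells.

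Of 16 measured inducers and turnover factors of the D-type cyclins, the MAPK3 knockdown of SW620 had 7 lower and 2 higher (15.9% and 13.9% of all genes); 3 were lower with arrays averaged in pairs and 1 against non-transduced cells. The smallest p-values were those of the immediate early factors EGR1 (-1.35 ± 0.23), JUN (-0.82 ± 0.16) and FOS (-1.48 ± 0.30). In the same group CCND2 fell, and CCND1 differed by -0.17 ± 0.26. In the HRAS knockdown of SW480, where CCND2 fell, 3 of the 16 were higher and 4 lower (9.97% and 16.2% of all genes), with the F-box genes FBXO31 (0.49 ± 0.09) and FBXO4 (-0.79 ± 0.16), both linked to cyclin D1 degradation, and FOSL1 (0.74 ± 0.17) first by p. The median of this list was -0.08, against 0.02 over all genes.

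The members have 24 probe sets together, 16 besides those used. For RBL2 and CDK6, the brightest of these went the same way in the comparisons that follow. The CDK6 probe set of mean level 8.99 took the opposite sign with the MAPK3 knockdown in SW620. For the HRAS knockdown in SW480, the second RBL2 probe set gave -0.66 ± 0.18 and the one used -1.25 ± 0.16. For the CDK5 knockdown in SW480, the next 2 brightest CDK6 probe sets gave 1.26 ± 0.22 and 1.13 ± 0.20. The other 4 CDK6 probe sets, whose means lie between 5.30 and 6.20, gave -0.16 ± 0.19, 0.39 ± 0.17, 0.42 ± 0.31 and -0.09 ± 0.10, so the mean of all 7 shows a smaller rise (0.59). With that mean the CDK6 rises in SW480 were 0.76 for MAPK3, 0.64 for MAP2K2 and 0.51 for MAP2K1, and none of the 4 in SW620 passed (0.06 to 0.20, limma adjusted p = 0.40 to 0.81). The other 3 CCND2 probe sets, with means between 4.81 and 5.69, gave -0.49 ± 0.21, -0.18 ± 0.16 and -0.24 ± 0.21 for the HRAS knockdown in SW480, and none of these passed; for MAP2K1 they gave 1.02 ± 0.21, 0.43 ± 0.16 and 0.96 ± 0.21. With probe sets averaged, the CCND2 fall with MAPK3 in SW620 (-0.28), the CCND3 line difference for CDK5 (0.31) and the RBL1 calls in SW480 (0.20 for CDK5 and -0.10 for NGFR) no longer passed. The dim RB1 and RBL1 probe sets, with means between 3.55 and 5.20, differed from those used in several comparisons.

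The genes whose pattern was most like each member were found from Pearson's r over the 18 group means, centred within each line after adjustment for label series. The means share arrays and controls, so r is a description only. RBL2 was followed most closely by RB1CC1 (0.95), MLYCD (0.94) and PARP11 (0.93), and RBL1 by DBR1 (0.91), CDC27 (0.90) and MAP4K4 (0.90). CCND3 went with H2AX (0.91), FOXM1 (0.90) and LAGE3 (0.89), and CDK4 with XRCC3 (0.90), LAS1L (0.87) and RFC2 (0.87). CCND2 was nearest WRAP73 (0.87), RB1 nearest EFR3A (0.86), CCND1 nearest PALM (0.83) and CDK6 nearest SFPQ (0.83).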

How the data were processed

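The authors deposited log2 expression levels, made by RMA per the submitters' processing notes, for Affymetrix arrays of 54675 probe sets; the version and genome build are not given in the sources used here. Of the probe sets, 41097 name 1 gene, 1801 several and 11777 none, and the probe set with the highest mean stood for each of 19775 genes. Groups were compared with limma 3.58.1 (R 4.3.3; lmFit and eBayes with trend and robust) in a model of all 18 groups with label series within each line, and p-values were adjusted by Benjamini-Hochberg over all genes with a threshold of 0.05. The number of arrays limits the precision.

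The members and lists were chosen with earlier results of these data known. The genes named beside the members are the 3 most like each member by Pearson's r and, from each list, at most 3 with the smallest p in the comparison described; CDKN2B in the CDK5 knockdown was chosen after its values were seen. Same-numbered samples deviated together in all 142 pairs of a knockdown array and a control array (r over 0.1), in step with the label series; after the series means were removed, 14 of 96 pairs within replicates 3 to 6 did so. Alternatives were the replicate block, no label series, other controls, probe sets, filters and normalisation, pairs of arrays, and arrays left out; non-transduced cells as the control was added after seeing the data.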

Additional observations from a re-analysis of the deposited data

Results flagged for a closer look

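In 41 of 128 groups of 5 or 6 arrays, the highest or lowest level of a member stood far from the rest of its group by Dixon's criterion. Chance flags about 1 in 20 groups, which is 6.4 of 128. In all 41 the array was replicate 1 or 2, the label series of which each group holds 1 array, and several of the 41 share an array. The CCND1 levels were 12.45 in the SW480 CDK5 knockdown (highest, replicate 1), 9.06 in the SW620 CDK5 knockdown (lowest, replicate 2), 6.67 in the SW620 MAP2K1 knockdown (lowest, replicate 2) and 8.35 in the SW480 MAPK3 knockdown (lowest, replicate 1). Others of CCND1 were 7.98 in the SW620 MAPK3 knockdown (lowest, replicate 2), 12.21 in the SW480 empty vector (highest, replicate 1) and 10.04 in the SW620 non-target (highest, replicate 1). The CCND2 levels were 4.44 in the SW620 HRAS knockdown (lowest, replicate 1), 12.12 in the SW480 MAP2K1 knockdown (highest, replicate 1) and 11.92 in the SW480 MAPK3 knockdown (highest, replicate 1). Others of CCND2 were 5.95 in the SW620 MAPK3 knockdown (highest, replicate 2), 3.86 in the SW620 NGFR knockdown (lowest, replicate 1) and 9.80 in the SW480 non-target (highest, replicate 2). The CCND3 levels were 9.77 in the SW620 CDK5 knockdown (highest, replicate 2), 9.99 in the SW620 MAP2K2 knockdown (highest, replicate 2), 8.33 in the SW480 MAPK3 knockdown (lowest, replicate 1), 7.91 in the SW620 MAPK3 knockdown (lowest, replicate 2) and 9.89 in the SW620 NGFR knockdown (highest, replicate 2). The CDK4 levels were 11.19 in the SW620 CDK5 knockdown (highest, replicate 2), 11.42 in the SW620 HRAS knockdown (highest, replicate 2), 11.40 in the SW480 MAP2K2 knockdown (highest, replicate 2), 10.11 in the SW620 MAP2K2 knockdown (lowest, replicate 1) and 8.37 in the SW620 MAPK3 knockdown (lowest, replicate 2). Others of CDK4 were 10.64 in the SW480 NGFR knockdown (highest, replicate 1), 11.29 in the SW480 empty vector (highest, replicate 1), 11.25 in the SW620 empty vector (highest, replicate 1) and 11.54 in the SW480 non-target (highest, replicate 1). The CDK6 levels were 10.73 in the SW620 CDK5 knockdown (lowest, replicate 2), 8.85 in the SW480 MAP2K2 knockdown (lowest, replicate 2), 10.29 in the SW620 MAP2K2 knockdown (lowest, replicate 1) and 8.50 in the SW480 MAPK3 knockdown (lowest, replicate 2). The RB1 levels were 7.30 in the SW620 CDK5 knockdown (lowest, replicate 2), 7.28 in the SW620 MAP2K1 knockdown (lowest, replicate 1), 6.02 in the SW620 MAP2K2 knockdown (lowest, replicate 1) and 7.25 in the SW620 MAPK3 knockdown (lowest, replicate 1). For RBL1 the level was 4.83 in the SW620 CDK5 knockdown (lowest, replicate 2). The RBL2 levels were 7.46 in the SW480 CDK5 knockdown (lowest, replicate 2), 7.61 in the SW620 CDK5 knockdown (lowest, replicate 2), 7.36 in the SW480 MAP2K1 knockdown (lowest, replicate 2), 8.34 in the SW620 MAP2K1 knockdown (lowest, replicate 2) and 7.40 in the SW480 MAPK3 knockdown (lowest, replicate 2). Of these arrays, MAP2K1 and MAPK3 replicate 2 and NGFR replicate 1 in SW620 are the degraded ones, and the MAP2K1, MAP2K2 and MAPK3 replicate 1 arrays labelled SW480 carry genes of SW620.

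In 9 of 48 pairs the effect of a knockdown differed between the lines by the limma interaction term (16.2% of all gene and knockdown pairs did). On the log2 scale, SW620 minus SW480, CCND3 differed by 0.63 for CDK5. CDK6 differed by -0.70 for CDK5, -0.74 for HRAS and -0.84 for MAPK3. RBL2 differed by -0.67 for CDK5 and -1.02 for NGFR. CCND2 differed by -1.38 for MAP2K1 and -1.43 for MAPK3. RBL1 differed by 0.73 for NGFR. The targets NGFR and HRAS themselves fell less in SW620 than in SW480.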

How the results depend on the processing

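Across the 8 members, 63 differences were called, and 20 of these passed under all 19 alternatives. A model without the label series ended 41 calls, averaging replicates 3 to 6 in pairs by name ending 36, the empty vector as the only control 23, the non-target hairpin as the only control 12 and the replicate block 5, which are given with their results; the block changed no other call. Of 5016 values of single genes under other settings, 4305 kept their direction and side of the threshold, 350 lost and 276 gained a call, and 85 turned.

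Averaged over the lines, the 16 calls became 7 without the label series, 27 with only the compared groups in the model, 9 in pairs, 39 in replicates 3 to 6 alone, 25 without the 6 arrays that stand apart and 2 against non-transduced cells. Leaving out each replicate gave 12 to 22. The 12 calls of SW480 became 7 without the label series, 36 in replicates 3 to 6, 20 without the 6 arrays and 3 against non-transduced cells, and 8 to 17 with a replicate left out. The 18 calls of SW620 became 2 without the label series, 10 with the empty vector alone, 3 in pairs, 42 in replicates 3 to 6 and 4 against non-transduced cells, and 9 to 27 with a replicate left out. The 9 line differences became 0 without the label series, 20 with only the compared groups, 4 with the empty vector alone, 0 in pairs, 37 in replicates 3 to 6, 15 without the degraded arrays, 17 without the 6 arrays and 1 against non-transduced cells, and 3 to 22 with a replicate left out. Between the vector controls of the lines, 7 to 8 were called with a replicate left out. The 0 calls of the non-target hairpin against the empty vector became 3 with only the compared groups, 4 in replicates 3 to 6 and 1 without the 6 arrays, and 0 to 1 with a replicate left out. The 0 calls of vector controls against non-transduced cells became 3 with only the compared groups, 1 with probe sets averaged and 2 without the 6 arrays, and 0 to 3 with a replicate left out. The causes of these shifts, the larger counts in replicates 3 to 6 alone among them, were not tested. Levels of CCND2 in SW620 and RBL1 in replicates 1 and 2 lie near or below the array medians, which limits their precision.

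Values that turned are log2 differences, most of them small or from dim probe sets. In replicates 3 to 6 alone, CCND1 took the opposite sign with HRAS -0.21 between the lines, MAP2K1 0.13 averaged, MAP2K2 0.31 in SW480, MAPK3 0.56 in SW480 and 0.14 in SW620 and -0.42 between the lines and 0.35 averaged, NGFR 0.40 in SW620 and 0.15 averaged. CCND2 did so with MAP2K1 0.47 in SW620, MAP2K2 -0.31 in SW480 and 0.17 in SW620 and 0.47 between the lines, NGFR 0.37 in SW620 and 0.43 averaged. CCND3 did so with MAPK3 0.26 in SW480. CDK4 did so with HRAS -0.20 in SW480, MAP2K2 0.078 averaged, MAPK3 0.46 in SW620 and 0.16 averaged. RBL2 did so with MAP2K1 -0.13 averaged, MAP2K2 0.30 in SW480, NGFR 0.15 averaged. Without the 6 arrays that stand apart, CCND1 took the opposite sign with MAPK3 0.43 in SW480 and 0.26 averaged. CCND3 did so with MAPK3 0.30 in SW480. CDK4 did so with MAPK3 0.33 in SW620. Without replicate 1, CCND1 took the opposite sign with MAPK3 -0.67 between the lines. Against non-transduced cells, CCND3 took the opposite sign with MAP2K2 -0.056 in SW620, NGFR -0.036 in SW620. CDK6 did so with CDK5 -0.11 in SW620, MAP2K1 -0.057 in SW620, MAP2K2 -0.14 in SW620, MAPK3 -0.18 in SW620. RBL2 did so with CDK5 0.020 in SW620 and 0.033 between the lines, MAPK3 0.096 in SW620, NGFR 0.046 in SW620. With probe sets averaged, RB1 took the opposite sign with NGFR -0.36 between the lines. The CCND3 probe set of mean level 4.89 gave CDK5 -0.0068 between the lines, HRAS 0.24 in SW480. The CDK6 probe set of mean level 5.30 gave CDK5 -0.090 in SW480 and -0.087 in SW620 and 0.0036 between the lines and -0.089 averaged, MAP2K1 -0.032 in SW480 and -0.11 in SW620 and -0.069 averaged, MAP2K2 -0.14 in SW480 and -0.17 in SW620 and -0.16 averaged, MAPK3 -0.063 in SW620, NGFR -0.32 in SW620 and -0.21 averaged. The CDK6 probe set of mean level 6.20 gave CDK5 -0.16 in SW480 and -0.19 in SW620 and -0.17 averaged, HRAS -0.50 in SW620 and -0.12 averaged, MAP2K1 -0.030 in SW620, MAP2K2 -0.27 in SW620, NGFR -0.77 in SW480 and -0.92 in SW620 and -0.84 averaged. The CDK6 probe set of mean level 5.55 gave CDK5 -0.15 in SW620, HRAS -0.088 averaged, MAP2K1 -0.27 in SW620 and -0.024 averaged, MAP2K2 -0.31 in SW620, MAPK3 -0.30 in SW620, NGFR -1.01 in SW620 and -0.66 averaged. The CDK6 probe set of mean level 5.99 gave MAP2K1 -0.0064 in SW620, MAPK3 -0.069 in SW620. The CDK6 probe set of mean level 8.99 gave MAPK3 -0.21 in SW620. The RB1 probe set of mean level 4.88 gave MAP2K1 -0.40 in SW620 and -0.34 averaged, MAPK3 -0.50 in SW620 and -0.28 averaged, NGFR -0.85 between the lines. The RBL1 probe set of mean level 3.55 gave CDK5 -0.021 in SW480 and -0.0047 averaged, NGFR 0.032 in SW480. The RBL1 probe set of mean level 5.20 gave NGFR 0.063 in SW480. The RBL1 probe set of mean level 4.29 gave vector controls against non-transduced cells -0.55 in SW620.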
